A study of Mus musculus with 24 samples.

Results

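The calpain genes of the developing mouse lens were described through 7 genes: the calpain large subunits Capn1, Capn2, Capn3, Capn5 and Capn7, the small subunit Capns1, and Cast, which encodes the inhibitor calpastatin. They were taken by gene symbol from a table of 12611 genes, and all 7 were present and were among the 12427 genes that passed the filter on low counts. Calpains are cysteine proteases that depend on calcium and cut their targets at a limited number of sites, so that the target is altered rather than destroyed. Capn1 and Capn2 each pair with Capns1 to form the classical enzymes, µ-calpain and m-calpain, and calpastatin binds and blocks these heterodimers. In the lens, calpains are known for cutting crystallins and the membrane skeleton, both in fiber maturation and in rodent cataract, and rodent lenses make lens forms of Capn3 such as Lp82.

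Total RNA was sequenced from microdissected lens tissue of CD1 mice, an outbred stock, and the labels name no other allele and no treatment. The groups were lens fiber and lens epithelium, each from embryos (stage E14.5, stage E16.5 and stage E18.5, in days of gestation) and from newborns (stage P0.5, in days after birth), with 3 biological replicates per tissue and stage (24 libraries in 8 groups). Fiber cells arise from the epithelium, elongate and lose their organelles. Whether a replicate pooled several animals is not stated. Levels are given as CPM, counts relative to the size of the library, with library sizes scaled by TMM, a method that assumes that most genes do not differ. Values of different genes are set side by side only as CPM per kb of exon. A gene is said to have risen, fallen or changed where edgeR's quasi-likelihood test gave a Benjamini-Hochberg adjusted p under 0.05 over all genes tested and the change was at least 2-fold.

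Total counts were 13010174 to 21617737 in fiber libraries and 7658794 to 11819117 in epithelium libraries. Crystallins took 23.3% to 43.9% of counts in fiber and 1.66% to 4.28% in epithelium, and the ribosomal RNA precursor Rn45s took 3.98% to 28.9% in fiber, highest in E18.5 fiber replicate 2, and 5.29% to 17.5% in epithelium. The 8 fiber markers summed to 78990 to 197700 CPM in fiber libraries and 2680 to 4312 CPM in epithelium libraries, and the 6 epithelium markers to 182.4 to 390.9 CPM in fiber and 1911 to 2533 CPM in epithelium, as the tissue labels say. Markers of vessels and macrophages lay mostly in epithelium libraries: 7 endothelial markers summed to 10.5 to 37.2 CPM in fiber and 230.3 to 430.7 CPM in epithelium, 5 mural cell markers to 4.91 to 23.5 CPM in fiber and 101.8 to 333.7 CPM in epithelium, and 6 macrophage markers to 0.777 to 2.15 CPM in fiber and 10.7 to 33.1 CPM in epithelium. The sum of 7 retina markers was higher in fiber, at 1683 to 2484 CPM in fiber and 545.0 to 934.2 CPM in epithelium. This direction was that of Sfrp1, which alone averaged 1714 to 2424 CPM in fiber groups and 566.6 to 832.7 CPM in epithelium groups. The rest of the sum was larger in epithelium at every stage. At E18.5, the sum and Sfrp1 averaged 2291 and 2282 CPM in fiber, against 840.6 and 735.6 CPM in epithelium. Of 7 pigment cell markers, the sum was 86.5 to 114.0 CPM in fiber, nearly all of it Mitf, and in epithelium it was 5.89 to 15.99 CPM at E14.5 and E16.5 and 91.1 to 223.5 CPM at E18.5 and P0.5. The part of these cells in the differences between tissues below was not tested. In bulk tissue, fewer cells of a type and less RNA per cell cannot be told apart.

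Capn3 was the dominant calpain transcript of both tissues and stood 16.8-fold higher in fiber than in epithelium. The small subunit gene Capns1, Capn1 and Capn5 were also at least 2-fold higher in fiber, Capn2 and Capn7 were higher by less than 2-fold, and Cast was the member that was slightly lower in fiber. With library totals in place of TMM, Capn1, Capn2, Capn5 and Capn7 turned direction, and Capn3 and Cast did not. Of those that turned, Capn1 did not differ from 0 there (edgeR adjusted p = 0.239). From E14.5 to P0.5, Capn3 fell in both tissues, while Capn5 rose in both and Capn1 rose in fiber. Averaged over the 4 stages, 4 of the 7 members were higher in fiber, against 15.7% of all genes tested, and 0 were lower, against 22.2% of all genes; the median log2 difference was 1.02 over the members and -0.03 over all genes tested. With library totals, and with totals that leave out crystallins, the count of members that were higher was 1, Capn3, and Capns1 was under 2-fold in both, at 0.20 and 0.74. Of all 12427 genes tested, 587 and 880 were higher in these settings. With TMM, the 3 fiber libraries and the 3 epithelium libraries did not overlap in any member at any stage. The share of all genes without overlap is not given here, so this does not set the members apart.

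**Figure D1:**
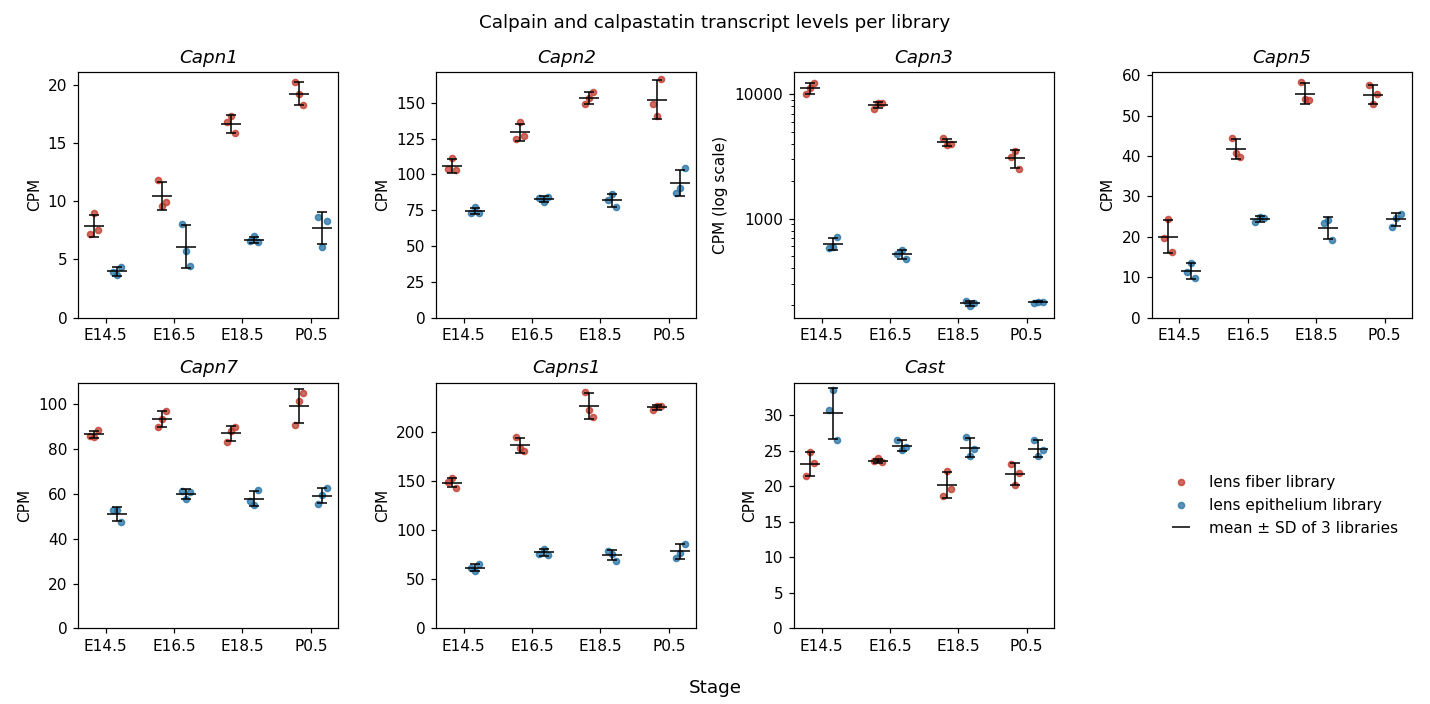
Level of each member in CPM (vertical axis, logarithmic for Capn3 and linear from 0 for the others) by stage, with 1 point per library, fiber in red to the left of epithelium in blue, and black bars for the mean ± SD of 3 libraries. Capn3 lay between 2510 and 12337 CPM in fiber and between 196.2 and 706.0 CPM in epithelium and was lower at the last 2 stages than at E14.5 in both, and Cast was the single member with its epithelium points above its fiber points.

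Capn3 encodes a calpain best known from skeletal muscle as p94 and, in rodent lenses, as the splice form Lp82, and RefSeq lists both names as synonyms of the gene. It lies on mouse chromosome 2 at 120456019 to 120504913 on the plus strand (GRCm38), and its exons together cover 5023 bases. GENCODE M21 lists 13 transcripts of it, of which 6 are protein-coding. RefSeq gives 2 starts that are 13316 bases apart. The downstream start falls in the first intron of the transcript Capn3-202, between the end of its first exon at 120464181 and the start of its second exon at 120480683. Capn3-202 begins near the upstream start and encodes 821 amino acids, and Capn3-201 begins near the downstream start at 120476920 and encodes 709. The counts are per gene, so reads from the 2 starts cannot be told apart in the values below.

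The 250 bases before each start are shown because these windows are the sequence in which the start sites of the most abundant calpain gene of the lens differ. The sequences are those of RefSeq on GRCm38.p6, both on the plus strand, at chr2:120463343-120463592 and chr2:120476659-120476908, written in lower case with motif matches in capitals.
Capn3 upstream start: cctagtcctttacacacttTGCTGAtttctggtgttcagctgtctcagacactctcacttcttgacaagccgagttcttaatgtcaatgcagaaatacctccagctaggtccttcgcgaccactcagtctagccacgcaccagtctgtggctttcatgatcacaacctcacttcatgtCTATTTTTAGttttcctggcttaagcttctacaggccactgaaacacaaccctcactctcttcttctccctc
Capn3 downstream start: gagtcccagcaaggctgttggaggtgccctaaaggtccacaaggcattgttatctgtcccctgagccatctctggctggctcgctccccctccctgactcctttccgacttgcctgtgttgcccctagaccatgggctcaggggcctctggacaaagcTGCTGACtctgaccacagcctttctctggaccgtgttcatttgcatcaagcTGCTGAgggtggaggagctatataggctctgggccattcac
The motifs were chosen with these sequences in view: TGCTGA, the core of the half-site bound by large MAF factors, its longer form TGCTGAC, which contains it, and the MEF2 motif, named for a family of muscle transcription factors, each searched on both strands. In the downstream window, TGCTGAC began 92 bases and a further TGCTGA began 41 bases before the start. The upstream window held a MEF2 match 72 bases before the start, found on both strands, and 1 TGCTGA match 231 bases before it. Of all 32851 windows of the same length in the table of promoters, 3.81% held TGCTGAC, 16.1% held TGCTGA and 2.92% held the MEF2 motif. A match is a description of these letters and not evidence of a bound site.

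In fiber, Capn3 measured 10145, 11177 and 12337 CPM at E14.5, 7673, 8497 and 8517 CPM at E16.5, 4427, 3921 and 4001 CPM at E18.5, and 3153, 3488 and 2510 CPM at P0.5. In epithelium it measured 580.2, 591.2 and 706.0 CPM at E14.5, 516.7, 561.9 and 471.7 CPM at E16.5, 217.6, 196.2 and 210.2 CPM at E18.5, and 211.2, 215.1 and 214.8 CPM at P0.5. Every fiber library stood above every epithelium library, the lowest fiber value being that of P0.5 replicate 3 and the highest epithelium value that of E14.5 replicate 3. The log2 difference of fiber over epithelium, averaged over stages, was 4.07 (SE 0.06, adjusted p = 7.45e-26 by edgeR's quasi-likelihood test), and taken stage by stage from E14.5 to P0.5 it was 4.16, 3.99, 4.31 and 3.84. The tissue difference was thus large at every stage.

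Capn3 fell from E14.5 to P0.5 in both tissues. At P0.5, fiber averaged 3050 ± 497 CPM, against 11220 ± 1097 CPM at E14.5 (SD, n = 3 each), a log2 change of -1.88 (SE 0.11, edgeR adjusted p = 1.53e-12). Epithelium averaged 213.7 ± 2.2 CPM at P0.5, against 625.8 ± 69.7 CPM at E14.5, a log2 change of -1.55 (SE 0.11, edgeR adjusted p = 4.23e-11). The difference between the 2 changes, -0.33 on the log2 scale, did not pass the test (SE 0.15, edgeR adjusted p = 0.0785). Of all genes tested, 5.24% fell from E14.5 to P0.5 in fiber and 3.21% fell in epithelium.

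The largest step of that fall lay between E16.5 and E18.5. In epithelium Capn3 fell there, with a log2 change of -1.31 (SE 0.11, edgeR adjusted p = 1.59e-09), and 0.547% of all genes fell at this step. Over the same step the fiber change was -0.9994 (SE 0.11, edgeR adjusted p = 2.9e-07), which is just short of 2-fold, and it went past 2-fold when E16.5 fiber replicate 1 or E18.5 fiber replicate 1 was left out. From E18.5 to P0.5 the log2 change was -0.43 in fiber (edgeR adjusted p = 0.0165) and 0.04 in epithelium (edgeR adjusted p = 0.853), where the libraries of the 2 stages overlapped. At the same step in epithelium, the sum of the 7 pigment cell markers averaged 204.2 CPM at E18.5, against 10.02 CPM at E16.5, and the sum of the 5 mural cell markers 313.6 CPM at E18.5, against 151.3 CPM at E16.5. Endothelial markers summed to 390.5 CPM, against 250.2 CPM, macrophage markers to 24.6 CPM, against 12.7 CPM, and retina markers to 840.6 CPM, against 798.7 CPM. Sums of mesenchyme and red cell markers were lower at E18.5, at 23.9 CPM, against 41.4 CPM, and 10.2 CPM, against 15.2 CPM. The part of these cells in the Capn3 values was not tested.

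As a share of all counts, Capn3 took 0.174% ± 0.031 in fiber at P0.5, against 0.940% ± 0.123 in fiber at E14.5 (SD, n = 3 each). In epithelium the share was 0.0334% ± 0.0004 at P0.5, against 0.0918% ± 0.0101 at E14.5. Ranked per kb of exon among the 12340 genes matched to 1 annotated gene, Capn3 stood at places 33 to 52 in P0.5 fiber libraries and 17 to 19 in E14.5 fiber libraries. In epithelium it stood at places 361 to 383 at P0.5 and 68 to 81 at E14.5. Of the summed level per kb of the 5 large-subunit genes, Capn3 made up 98.2% ± 0.18, 97.0% ± 0.15, 93.5% ± 0.46 and 90.8% ± 1.84 from E14.5 to P0.5 in fiber, and 82.9% ± 2.03, 76.5% ± 1.85, 57.3% ± 1.62 and 55.9% ± 1.60 in epithelium. Capn3 thus remained the most abundant of the 5 in every group, by a margin that became narrower with stage in both tissues.

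The level in epithelium was set beside that of 8 fiber markers, since an epithelium sample can carry fiber cells. Capn3 in epithelium was at 5.58%, 6.28%, 5.05% and 7.01% of its fiber level at the 4 stages in order. The markers had medians of 2.94%, 2.89%, 1.52% and 1.90% at these stages, with Prox1, a transcription factor that epithelium also makes, highest at 32.2% to 56.1%, and the lens crystallin Crygd or the nuclease Dnase2b lowest at 0.571% to 1.18%. Capn3 was above 6 of the 8 markers at the first 2 stages and above 7 of the 8 at the last 2. What part of epithelial Capn3 came from fiber cells was not tested.

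**Figure D2:**
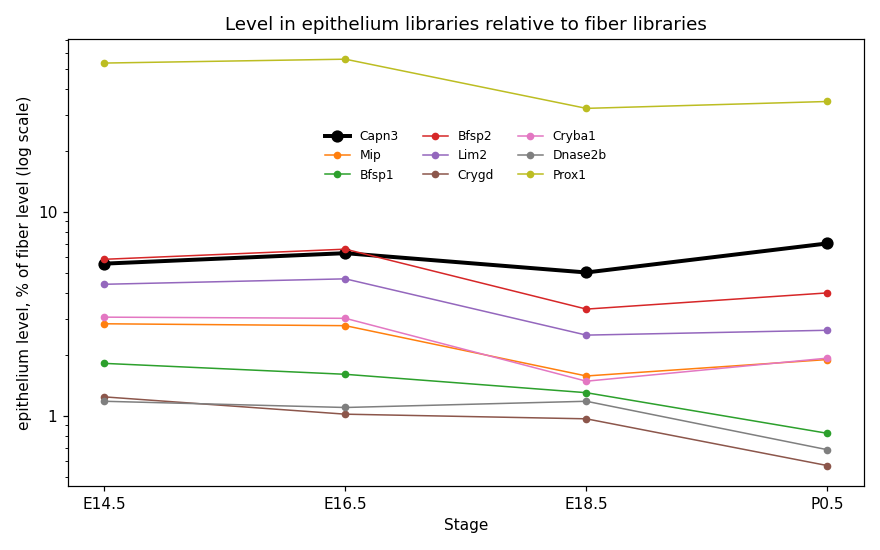
Mean level in the 3 epithelium libraries as a percentage of the mean level in the 3 fiber libraries (vertical axis, logarithmic) by stage, for Capn3 in black and the 8 fiber markers in colour. Capn3 stayed between 5.05% and 7.01% and the marker median between 1.52% and 2.94%.

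Of the classical enzymes, Capn2, the large subunit of m-calpain, was the more abundant. It lies on chromosome 1 at 182467260 to 182517608 on the minus strand. Per kb of exon it averaged 23.97 ± 2.12 CPM per kb in P0.5 fiber and 16.7 ± 0.75 CPM per kb in E14.5 fiber, and 14.8 ± 1.41 CPM per kb in P0.5 epithelium and 11.7 ± 0.35 CPM per kb in E14.5 epithelium (SD, n = 3 each). In fiber, Capn2 measured 103.7, 111.5 and 102.8 CPM at E14.5, 125.0, 136.3 and 127.1 CPM at E16.5, 149.2, 153.6 and 157.4 CPM at E18.5, and 149.0, 140.5 and 166.8 CPM at P0.5. In epithelium it measured 73.1, 76.9 and 73.2 CPM at E14.5, 83.6, 80.7 and 84.3 CPM at E16.5, 82.1, 86.3 and 77.1 CPM at E18.5, and 87.2, 90.8 and 104.2 CPM at P0.5. Fiber was the higher tissue at each stage, and within fiber the levels were higher at the last 2 stages than at E14.5 in every library. The averaged tissue difference was 0.69 on the log2 scale (SE 0.03, edgeR adjusted p = 1.27e-15), below 2-fold, and so was the change from E14.5 to P0.5 in fiber, 0.52, and in epithelium, 0.34. An antisense gene, Gm37885, overlaps 27.1% of the Capn2 exons, and whether counting used strand is not known.

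Capn1, the large subunit of µ-calpain, lies on chromosome 19 at 5988545 to 6015897 on the minus strand. Its levels in fiber were 7.16, 8.97 and 7.50 CPM at E14.5, 11.8, 9.56 and 9.90 CPM at E16.5, 16.7, 17.3 and 15.8 CPM at E18.5, and 20.3, 19.2 and 18.3 CPM at P0.5. In epithelium they were 3.88, 3.66 and 4.38 CPM at E14.5, 8.06, 5.70 and 4.42 CPM at E16.5, 6.58, 6.97 and 6.52 CPM at E18.5, and 8.63, 6.09 and 8.33 CPM at P0.5. Fiber libraries did not overlap between any stages, while the epithelium libraries of E16.5, E18.5 and P0.5 overlapped. Capn1 rested on 89 to 240 counts per fiber library and 49 to 151 counts per epithelium library, the fewest of the 7 members.

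Capn1 was higher in fiber by 1.10 on the log2 scale averaged over stages (SE 0.08, edgeR adjusted p = 3.61e-12). It was past 2-fold at E18.5, with 1.31, and at P0.5, with 1.32, but not at E14.5, with 0.97, or E16.5, with 0.78. It went past 2-fold at E14.5 in 3 of the 24 settings that leave out 1 library (E14.5 epithelium replicate 3, E14.5 fiber replicate 1 or E14.5 fiber replicate 3), to 1.06 at most, and at E16.5 without E16.5 epithelium replicate 1, to 1.02. The change of the difference from E14.5 to P0.5, 0.35, did not pass the test (SE 0.23, edgeR adjusted p = 0.236). In fiber, Capn1 rose from E14.5 to P0.5 by 1.29 on the log2 scale (SE 0.15, edgeR adjusted p = 1.82e-07), as did 6.69% of all genes. In epithelium the change was 0.95 (SE 0.17, edgeR adjusted p = 4.72e-05), short of 2-fold, and it went past 2-fold without E14.5 epithelium replicate 3 or without P0.5 epithelium replicate 2, to 1.09 at most.

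Capns1, the regulatory subunit that stabilizes both classical enzymes, was the second most abundant member per kb in fiber. It lies on chromosome 7 at 30186936 to 30198811 on the minus strand. Fiber libraries held 148.3, 152.5 and 143.1 CPM at E14.5, 194.8, 183.5 and 180.0 CPM at E16.5, 240.7, 221.8 and 214.8 CPM at E18.5, and 221.8, 225.6 and 226.2 CPM at P0.5. Epithelium libraries held 61.5, 58.8 and 65.2 CPM at E14.5, 75.9, 81.2 and 74.5 CPM at E16.5, 79.2, 75.8 and 69.0 CPM at E18.5, and 71.7, 76.9 and 86.3 CPM at P0.5. The lowest fiber library stood well above the highest epithelium library, and fiber levels climbed up to E18.5 and then stayed level, while epithelium levels stayed within a narrow range from E16.5 on.

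The tissue difference of Capns1 averaged 1.41 on the log2 scale (SE 0.03, edgeR adjusted p = 4.85e-22) and was past 2-fold at every stage, from 1.26 at E14.5 to 1.60 at E18.5. Capns1 and Capn3 were the 2 members that were higher in fiber at all 4 stages. At E14.5 and E16.5 these 2 of 7 were higher, against 14.0% and 14.6% of all genes, and at E18.5 and P0.5 the count with Capn1 and Capn5 was 4 of 7, against 17.4% and 17.5%. With library totals, and with totals without crystallins, the count was 1 of 7, Capn3, at each of the 4 stages. Of all 12427 genes, 751, 632, 537 and 526 were higher with library totals from E14.5 to P0.5. With totals without crystallins 1055, 868, 820 and 1013 were higher, so the count fell among all genes as well. Neither Capn1 nor Capn5 passed the test of a change in its tissue difference from E14.5 to P0.5. The change of Capns1 from E14.5 to P0.5 was 0.60 in fiber (SE 0.06, edgeR adjusted p = 4.55e-08) and 0.34 in epithelium (SE 0.07, edgeR adjusted p = 0.000135), both under 2-fold.

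**Figure D3:**
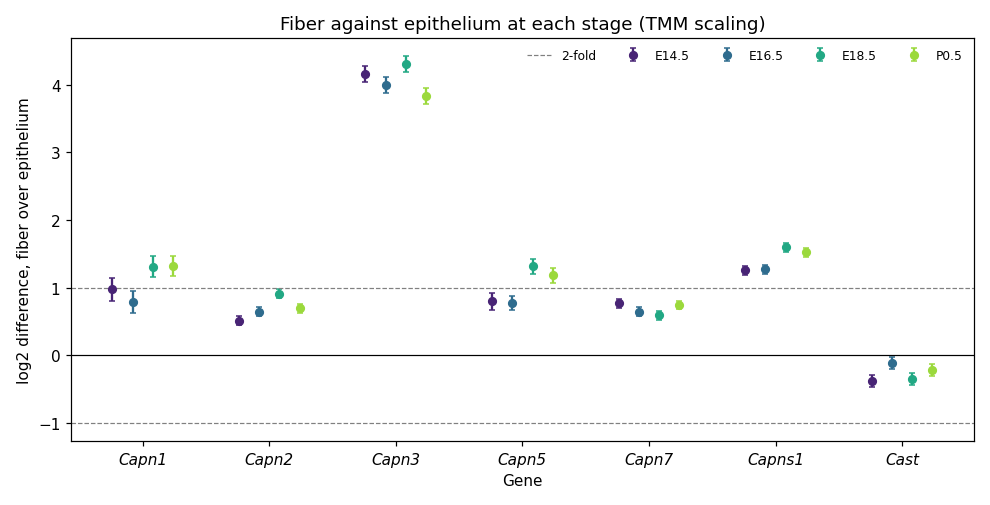
Log2 difference of fiber over epithelium for each member at each of the 4 stages (vertical axis), with bars for the SE from edgeR's fit of 24 libraries and dashed lines at 2-fold. Capn3 stayed between 3.84 and 4.31 and Capns1 between 1.26 and 1.60, while Capn1 and Capn5 were past the 2-fold line at the last 2 stages under TMM. Under library totals, Capn1 and Capn5 lay slightly below 0 at these stages and did not pass the test (edgeR adjusted p of 0.0622 to 0.452).

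Cast encodes calpastatin, the specific protein inhibitor of the classical calpains. It lies on chromosome 13 at 74692368 to 74808810 on the minus strand, and by mean level per kb it was the least abundant member in fiber at every stage. That rank rests on the exon union used as length, 11470 bases for Cast and 3344 for Capn1. Its levels in fiber were 21.5, 24.9 and 23.3 CPM at E14.5, 23.5, 23.9 and 23.4 CPM at E16.5, 18.6, 22.2 and 19.6 CPM at E18.5, and 23.2, 20.2 and 21.8 CPM at P0.5. In epithelium they were 30.8, 33.5 and 26.5 CPM at E14.5, 26.6, 25.1 and 25.5 CPM at E16.5, 26.9, 24.2 and 25.2 CPM at E18.5, and 26.5, 24.2 and 25.1 CPM at P0.5. Every fiber library was below every epithelium library of the same stage, but by a small margin. The averaged log2 difference was -0.27 (SE 0.04, edgeR adjusted p = 2.86e-06), well short of 2-fold, and at E16.5 it was -0.12 (SE 0.09, edgeR adjusted p = 0.198). From E14.5 to P0.5 the log2 change was -0.10 in fiber (edgeR adjusted p = 0.374) and -0.26 in epithelium (edgeR adjusted p = 0.00908), with overlapping libraries in both. Erap1, on the opposite strand, overlaps 7.27% of the Cast exons and itself measured 4.26 to 6.55 CPM in fiber and 8.40 to 23.7 CPM in epithelium. Whether reads of these 2 genes were shared was not tested.

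Ratios of members within a library do not depend on how libraries are scaled, and 4 of them were compared between tissues (levels per kb of exon, 12 fiber against 12 epithelium libraries, two-sided exact permutation within stages over 160000 arrangements, p adjusted over the 4). The ratio of Capns1 to the sum of Capn1 and Capn2 averaged 3.14 ± 0.10, 3.20 ± 0.17, 3.13 ± 0.25 and 3.06 ± 0.20 from E14.5 to P0.5 in fiber, and 1.93 ± 0.13, 2.10 ± 0.16, 2.02 ± 0.11 and 1.85 ± 0.08 in epithelium (SD, n = 3 each). It was 1.59-fold higher in fiber, with no overlap at any of the 4 stages (exact permutation p = 1.25e-05, the smallest that the design can give, adjusted p = 1.67e-05). In each tissue this ratio was nearly the same at all 4 stages.

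The ratio of Cast to the same sum was lower in fiber. It averaged 0.106 ± 0.004, 0.0876 ± 0.0016, 0.0602 ± 0.0049 and 0.0638 ± 0.0042 from E14.5 to P0.5 in fiber, and 0.204 ± 0.022, 0.151 ± 0.002, 0.149 ± 0.013 and 0.130 ± 0.013 in epithelium. The log2 difference was -1.01, which is 2.02-fold, and fiber and epithelium did not overlap at any of the 4 stages (exact permutation p = 1.25e-05, adjusted p = 1.67e-05). Within each tissue the ratio was lower at P0.5 than at E14.5 in all libraries, which is a description, since 3 against 3 libraries cannot give an exact p under 0.1. The size of each ratio rests on the exon lengths used, and transcript ratios say nothing of the amounts of protein.

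The ratio of Capn3 to the same sum was 10.02-fold higher in fiber (log2 difference 3.33, exact permutation p = 1.25e-05, adjusted p = 1.67e-05). In fiber it averaged 117.4 ± 13.7, 69.7 ± 4.0, 28.2 ± 2.4 and 20.6 ± 4.62 from E14.5 to P0.5. In epithelium it averaged 9.65 ± 1.12, 6.93 ± 0.73, 2.79 ± 0.26 and 2.50 ± 0.21 at these stages. Even the lowest fiber group was thus above the highest epithelium group. The ratio of Capn1 to Capn2 was 1.34-fold higher in fiber (log2 difference 0.43, exact permutation p = 0.0004, adjusted p = 0.0004), and the tissues overlapped at 1 stage, E16.5, where fiber averaged 0.153 ± 0.024 and epithelium 0.139 ± 0.042.

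**Figure D4:**
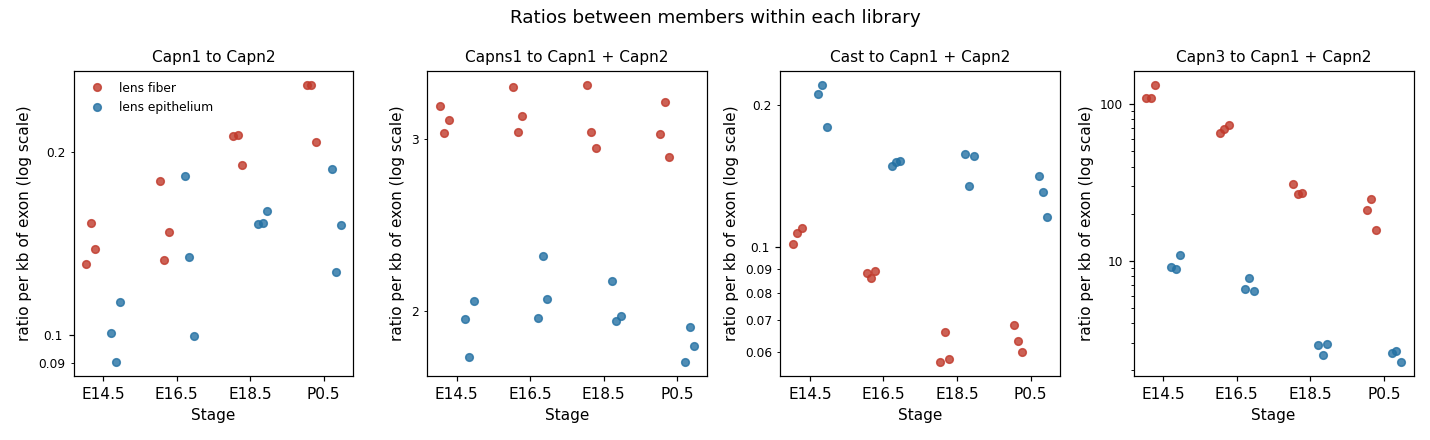
The 4 ratios within each library (vertical axes, logarithmic, levels per kb of exon) by stage, with 1 point per library, fiber in red to the left of epithelium in blue. Capns1 to the sum of Capn1 and Capn2 stayed near 3.06 to 3.20 in fiber and 1.85 to 2.10 in epithelium, while the mean of Capn3 to that sum was lower at each later stage in both tissues.

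Capn5 and Capn7 are atypical calpains that lack the calmodulin-like domain of the classical large subunits and are not known to need Capns1. Capn5, on chromosome 7 at 98121559 to 98178274 on the minus strand, measured 19.7, 24.3 and 16.2 CPM at E14.5, 44.5, 40.7 and 39.8 CPM at E16.5, 58.4, 54.0 and 53.8 CPM at E18.5, and 57.5, 52.8 and 55.2 CPM at P0.5 in fiber. In epithelium it measured 11.4, 13.5 and 9.72 CPM at E14.5, 23.6, 24.9 and 24.7 CPM at E16.5, 23.5, 24.04 and 19.2 CPM at E18.5, and 22.5, 24.6 and 25.8 CPM at P0.5. In both tissues the E14.5 libraries were the low ones, and in epithelium the 3 later stages overlapped.

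Between consecutive stages, Capn5 rose from E14.5 to E16.5. The change was 1.06 on the log2 scale in fiber (SE 0.11, edgeR adjusted p = 4.9e-07), where 1.46% of all genes rose, and 1.08 in epithelium (SE 0.12, edgeR adjusted p = 9.16e-07), where 1.71% rose. Both are close to 2-fold: without E14.5 fiber replicate 3 the fiber value was 0.93, and without E14.5 epithelium replicate 3 the epithelium value was 0.96. The fiber value was also under 2-fold with library totals, at 0.83, and with totals without crystallins, at 0.88. From E16.5 to E18.5 in fiber the change was 0.41 (edgeR adjusted p = 0.00678), under 2-fold, with no overlap of libraries. From E14.5 to P0.5, Capn5 rose by 1.46 in fiber (SE 0.11, edgeR adjusted p = 2.24e-10) and by 1.08 in epithelium (SE 0.12, edgeR adjusted p = 6.47e-08; 0.96 without E14.5 epithelium replicate 3), where 10.1% of all genes rose. Over the same first step in epithelium, the red cell markers summed to 15.2 CPM at E16.5, against 206.1 CPM at E14.5, with the 4 adult globins on that list at 0 in every library, and 5 mesenchyme markers summed to 41.4 CPM at E16.5, against 113.3 CPM at E14.5. Their part in the Capn5 values was not tested.

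Between tissues, Capn5 was higher in fiber by 1.02 on the log2 scale averaged over stages (SE 0.06, edgeR adjusted p = 1.72e-14). This is at the 2-fold line, and leaving out E14.5 epithelium replicate 3, E14.5 fiber replicate 2 or E18.5 epithelium replicate 3 took it below, to 0.98 at the lowest. By stage it was below 2-fold at E14.5, with 0.80, and E16.5, with 0.77, and above it at E18.5, with 1.32, and P0.5, with 1.18. The change of the difference from E14.5 to P0.5, 0.38, did not pass the test (SE 0.16, edgeR adjusted p = 0.0643).

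Capn7, which carries domains that bind the membrane-sorting machinery, lies on chromosome 14 at 31336638 to 31371986 on the plus strand. Its 12 fiber libraries ran from 83.3 to 105.2 CPM with a median of 90.0 CPM, and its 12 epithelium libraries from 47.3 to 62.6 CPM with a median of 57.2 CPM. The tissue difference was 0.68 on the log2 scale (SE 0.03, edgeR adjusted p = 4.85e-16), below 2-fold and nearly the same at each stage, from 0.59 to 0.77. From E14.5 to P0.5 the change was 0.20 in fiber (edgeR adjusted p = 0.011) and 0.22 in epithelium (edgeR adjusted p = 0.00534), both under 2-fold. The change of its tissue difference from E14.5 to P0.5 was -0.02 (SE 0.09, edgeR adjusted p = 0.863).

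Set in order by mean level per kb of exon, the members of P0.5 fiber ran Capn3 at 607.3 ± 99.0, Capns1 at 90.7 ± 1.0, Capn2 at 23.97 ± 2.1, Capn7 at 20.3 ± 1.5, Capn5 at 10.1 ± 0.4, Capn1 at 5.75 ± 0.30 and Cast at 1.89 ± 0.13 CPM per kb (SD, n = 3). At E14.5 in fiber the order was Capn3 at 2234 ± 218, Capns1 at 59.7 ± 1.9, Capn7 at 17.7 ± 0.3, Capn2 at 16.7 ± 0.8, Capn5 at 3.66 ± 0.74, Capn1 at 2.36 ± 0.29 and Cast at 2.02 ± 0.15 CPM per kb. In P0.5 epithelium it was Capn3 at 42.5 ± 0.4, Capns1 at 31.6 ± 3.0, Capn2 at 14.8 ± 1.4, Capn7 at 12.1 ± 0.7, Capn5 at 4.43 ± 0.30, Capn1 at 2.30 ± 0.42 and Cast at 2.205 ± 0.10 CPM per kb. The means ± SD of Capn2 and Capn7 overlapped in E14.5 fiber, as did those of Capn1 and Cast in E14.5 fiber and in P0.5 epithelium, so the order within those pairs is not clear of the spread.

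The tissue differences depend on the scaling. With library totals alone, the median log2 difference over all genes moved to -1.23, and with totals that leave out crystallins to -0.70, against -0.03 with TMM; the count of higher and lower genes was 587 and 7423, 880 and 4841, and 1945 and 2758 in these 3 settings. Capn3 was higher in fiber in each, by 2.87, 3.40 and 4.07. Capns1 kept its direction, at 0.20, 0.74 and 1.41, but was past 2-fold with TMM alone. Capn1, at -0.11, 0.42 and 1.10, and Capn5, at -0.19, 0.34 and 1.02, turned direction with library totals alone, with edgeR adjusted p of 0.239 and 0.012 there. Capn2, at -0.52, 0.01 and 0.69, and Capn7, at -0.52, 0.01 and 0.68, did so as well, with edgeR adjusted p of 7.78e-11 and 1.57e-10. Cast was lower in fiber in each setting, at -1.48, -0.95 and -0.27. Relative to the median of all genes in the same setting, the values were 4.10 to 4.11 for Capn3, 1.44 for Capns1 and -0.24 for Cast in all 3 settings. This likeness follows from the construction, since another library size moves all genes by nearly the same amount. It is therefore no test of whether a difference holds under another scaling.

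**Figure D5:**
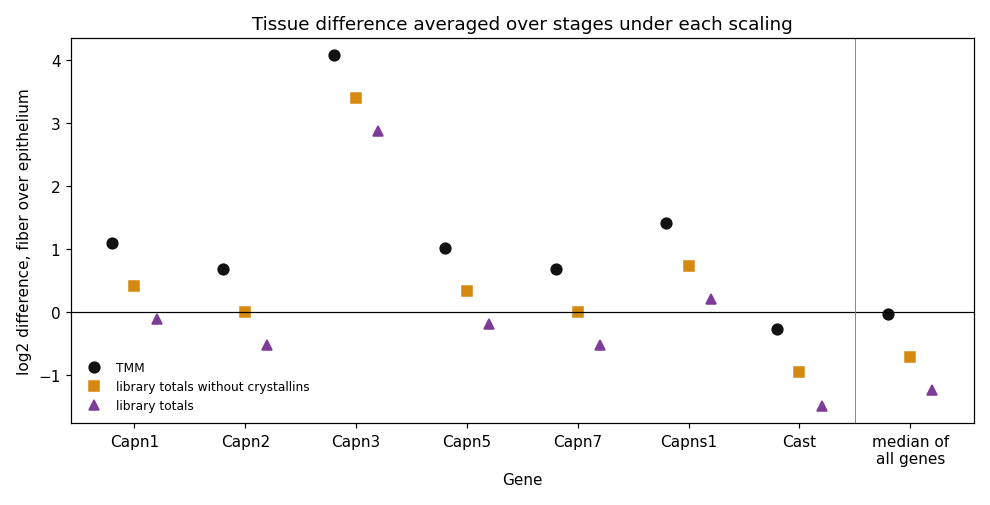
Log2 difference of fiber over epithelium averaged over stages for each member and for the median of all genes tested (vertical axis), under TMM (circles), library totals without crystallins (squares) and library totals (triangles). All members moved down together with the median of all genes, and Capn3 stayed above 0 in each setting, at 4.07, 3.40 and 2.87.

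Within fiber, scaling by library totals also lowered the changes from E14.5 to P0.5, as the median of all genes was then -0.56. Capn3 fell under every scaling, with a log2 change of -1.88 with TMM, -2.02 with totals without crystallins and -2.43 with library totals. Capn1 and Capn5 kept their direction, at 0.74 and 0.92 with library totals, both then under 2-fold. Capn2 and Capn7 turned direction there, at -0.03 (edgeR adjusted p = 0.812) and -0.36 (edgeR adjusted p = 0.00523), and Capns1 was at 0.05. In epithelium, where the median of all genes was then 0.10, no member turned direction.

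Likeness was measured by Pearson's r of log2 CPM over the 24 libraries with 8387 other genes, and genes are named from the 3 nearest to each member. The libraries form 2 tissue clusters, so the pooled r largely restates the tissue difference, and r within the 12 fiber and the 12 epithelium libraries is given beside it in that order, with no p. Nearest to Capn3 were Mapk8ip3, a scaffold of JNK signalling, with r of 0.994 over the 24 libraries, 0.970 in fiber and 0.953 in epithelium, the GTPase Nras with 0.991, 0.941 and 0.941, and the adaptor Tirap with 0.991, 0.937 and 0.942. They shared the shape and not the size of its pattern: Mapk8ip3 differed between tissues by 1.31 on the log2 scale and changed from E14.5 to P0.5 by -0.47 in fiber.

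Nearest to Capns1 were the adaptor Shc1 with 0.995 over the 24 libraries, 0.965 in fiber and 0.884 in epithelium, Prickle1 with 0.994, 0.968 and 0.801, and Megf9 with 0.994, 0.959 and 0.869. Among the nearest to Capn2 were the enolase Eno3 with 0.979, 0.936 and 0.849 and Pdlim7 with 0.979, 0.928 and 0.846. Capn1 was nearest to the myosin light chain Myl6 with 0.968, 0.977 and 0.872, Adipor1 with 0.962, 0.983 and 0.781, and Atp5k with 0.960, 0.957 and 0.800. Capn5 was nearest to the integrin subunit Itgb5 with 0.971, 0.978 and 0.892, Spock1 with 0.962, 0.981 and 0.935, and Lcp2 with 0.960, 0.962 and 0.861. The values within epithelium were lower than those over all libraries in each of these genes. For Capn7, Dynlt3 with 0.983, 0.770 and 0.840, Rab11a with 0.980, 0.610 and 0.839, and Sh3glb1 with 0.979, 0.565 and 0.825 were nearest. Cast had the lowest values over the 24 libraries, though not within fiber, with Dhx9 at 0.875, 0.686 and 0.832, Npat at 0.873, 0.598 and 0.808, and Syncrip at 0.870, 0.730 and 0.686.

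Of 9 further calpain genes on a list, 3 were in the table. Capn10 did not differ past the threshold between tissues, at -0.06 on the log2 scale (edgeR adjusted p = 0.295), and Capn15 was lower in fiber by less than 2-fold, at -0.38 (edgeR adjusted p = 2.92e-06). With library totals both were lower by more than 2-fold, Capn10 at -1.27 and Capn15 at -1.58, and with totals without crystallins Capn10 was at -0.74 and Capn15 at -1.05, the second of these past 2-fold. Averaged over stages, Capn6, a calpain without the catalytic cysteine, was lower in fiber, at -2.68 on the log2 scale (SE 0.29, edgeR adjusted p = 5.87e-09), and lower under both other scalings. With TMM, the difference did not pass the test at E14.5, at -0.15 (edgeR adjusted p = 0.762), or E16.5, at -1.04 (edgeR adjusted p = 0.132). At the last 2 stages Capn6 was lower in fiber, by -4.79 at E18.5 (edgeR adjusted p = 4.85e-09) and -4.74 at P0.5 (edgeR adjusted p = 8.66e-08). It had 0 to 15 counts per fiber library and 4 to 64 counts per epithelium library. In epithelium it rose from E16.5 to E18.5, with 64, 55 and 62 counts at E18.5, against 4, 12 and 9 counts at E16.5 (log2 change 2.97, SE 0.36, edgeR adjusted p = 6.86e-07). At this step the sums of pigment cell, mural cell, endothelial and macrophage markers were also higher. Their part in it was not tested. The other 6 were not analysed here.

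The proteins that calpains are known to cut were the next list. Of 25 substrate genes on the list, all tested, 14 were higher and 3 were lower in fiber averaged over stages, against 15.7% and 22.2% of all genes, with a median log2 difference of 1.17, against -0.03 over all genes. With library totals 10 were higher and 7 lower with a median of -0.04, against 587 higher and 7423 lower among all genes and a median of -1.23. With totals without crystallins 11 were higher and 6 lower, against 880 higher and 4841 lower among all genes. The beta crystallin Cryba4 was higher by 6.47 (SE 0.12, edgeR adjusted p = 1.17e-23), the beaded filament gene Bfsp1 by 6.24, the crystallin Crybb1 by 5.79 and the lens water channel Mip by 5.51. These are themselves fiber genes. The cell adhesion gene Cdh1, an epithelial cadherin, was lower in fiber, at -4.67 (SE 0.06, edgeR adjusted p = 7.03e-27), as were the calcium pump Atp2b1, at -1.76, and the actin cross-linker Flna, at -1.50, and these 3 were lower under every scaling.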

How the data were processed

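The deposited table holds raw whole-number counts, 1 per gene and library. HTSeq 0.6.1, TopHat2 2.0.13, Trim Galore 0.4.1, Cufflinks 2.2.1 and Cuffdiff, with build mm10, are named per the submitters' processing notes. Per the labels, libraries were stranded and depleted of ribosomal RNA; the strand setting of the counter is not stated. Overlapping genes may share reads. Total counts ran from 7658794 to 21617737.

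Genes passing filterByExpr of edgeR 4.0.16 (minimum count 10, minimum total 15) were scaled with TMM, and 1 quasi-likelihood model with a mean for each of 8 groups (residual degrees of freedom 16) gave every comparison as a contrast. P-values are two-sided with Benjamini-Hochberg adjustment over 12427 genes. The SE of a log2 change was taken as its size over the root of the test's F. The replicates are biological per the design text, with no sign of duplicated libraries (chi-square per degree of freedom at least 3.89). Exon lengths and coordinates are from GENCODE M21 (GRCm38), and R 4.3.3 and Python 3.11.15 were used. The fit was tested on simulated data.

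The members and the gene lists were chosen with earlier results of these data known. All 7 members are named, with the 3 genes most like each (of at least 10 CPM on average, pseudocount 0.5 CPM) and at most the 4 largest changes each way of a list; 2 genes that this rule names are not reported here. Alternatives were other scalings, no filter, DESeq2 1.42.0, a replicate block, adjusted p alone and leaving out each library.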

Additional observations from a re-analysis of the deposited data

Results flagged for a closer look

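With TMM, Capns1 differed more between tissues at P0.5 than at E14.5. Its log2 difference of fiber over epithelium was 1.52 at P0.5 and 1.26 at E14.5, and the change of 0.26 (SE 0.09) had an adjusted p of 0.027 by edgeR's quasi-likelihood test. The change was below 2-fold, so Capns1 is not among the 11.7% of all genes that passed both thresholds in this comparison. No other member had an adjusted p under 0.05 there. The result rests on TMM scaling. With library totals, Capns1 changed from E14.5 to P0.5 by 0.05 in fiber and 0.43 in epithelium. With totals without crystallins it changed by 0.46 in each tissue. When single libraries were left out under TMM, the edgeR adjusted p of the change in difference reached 0.0885 at most.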

How the results depend on the processing

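No member call changed without the filter on low counts, where all 98 values kept their direction and call, or with DESeq2, where 96 did and 2 values that passed no test turned sign near 0. The same held for the replicate block, with 98 of 98 unchanged (4 members higher in fiber averaged over stages, as without it). This block gives each replicate number 1 effect shared by all stages and tissues, so it does not test pairing within a stage. Same-numbered fiber and epithelium libraries had correlated deviations over 0.1 in 3 of 12 pairs (range -0.07 to 0.22), so they were not treated as pairs; the labels do not say whether they share animals. With adjusted p alone and no fold threshold, 6 members were higher at E14.5 and at E16.5, 1 was lower in the averaged comparison and at every stage except E16.5, 5 rose and 2 fell from E14.5 to P0.5 in epithelium, 5 rose in fiber, 1 changed its tissue difference, and at consecutive stages 4 rose and 1 fell in fiber and 5 rose and 2 fell in epithelium. The share of all genes under adjusted p alone is not given here, so these counts do not set the members apart. With library totals, 1 member (Capn3) was higher and 1 (Cast) lower in the averaged comparison and at each stage, 0 rose from E14.5 to P0.5 in fiber and 2 in epithelium, and at consecutive fiber stages 0 rose and 1 fell. With totals without crystallins, 1 was higher in each tissue comparison, 1 was lower at E18.5, 2 rose in epithelium from E14.5 to P0.5, and at consecutive fiber stages 0 rose and 1 fell. With library totals, Capn1 turned to -0.1095 averaged, -0.1775 at stage E18.5 and -0.131 at stage P0.5, and Capn5 to -0.1907, -0.1662 and -0.2699. Of these values, only the averaged one of Capn5 had an edgeR adjusted p under 0.05, at 0.012. The construction of these settings moves all genes together. Averaged over stages, 587 of the 12427 genes tested were higher in fiber with library totals and 880 with totals without crystallins. Leaving out each library, 3 to 4 members were higher averaged over stages, 1 to 2 rose in epithelium from E14.5 to P0.5, and at consecutive stages 0 to 1 rose and 0 to 1 fell in fiber and 0 to 1 rose in epithelium. Capn3 held its calls between tissues and from E14.5 to P0.5 in all 24. Depth limits Capn1 most, with 49 counts in its lowest library.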

Other observations

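Other cysteine proteases and their inhibitors went both ways. Of 22 genes on the list, 19 were tested. Averaged over stages, 4 were higher and 6 lower in fiber, against 15.7% and 22.2% of all genes tested. The median log2 difference was -0.65, against -0.03 over all genes tested. With library totals 1 was higher and 14 lower, against 587 higher and 7423 lower among all 12427 genes tested. With totals without crystallins 3 were higher and 11 lower, against 880 higher and 4841 lower among all genes. Atg4a, which processes autophagy proteins, was higher in fiber by 1.84 on the log2 scale (SE 0.08, edgeR adjusted p = 1.83e-16), the lysosomal legumain gene Lgmn by 1.77 and the cathepsin gene Ctsz by 1.35, none of which was past 2-fold with library totals. The initiator caspase Casp8 was lower in fiber, at -4.61 (SE 0.25, edgeR adjusted p = 7.89e-15), as were the cathepsin gene Ctss at -3.66, the caspase gene Casp6 at -2.97 and Ctsh at -2.76. All 4 were low in both tissues. In that order they averaged 0.16, 0.13, 0.95 and 0.90 CPM in fiber and 4.04, 1.67, 6.90 and 8.17 CPM in epithelium. Ctss is also made by macrophages, whose 6 markers summed to 0.777 to 2.15 CPM in fiber and 10.7 to 33.1 CPM in epithelium, and their part in it was not tested.

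Genes of calcium handling went both ways, in numbers near the shares of all genes. Of 31 on the list, 25 were tested. Averaged over stages, 5 were higher and 6 were lower in fiber, against 15.7% and 22.2% of all genes tested. The median log2 difference was 0.23, against -0.03 over all genes. With library totals 1 was higher and 12 lower with a median of -0.97. Among all 12427 genes tested, 587 were then higher and 7423 lower with a median of -1.23. With totals without crystallins 3 were higher and 10 lower, against 880 higher and 4841 lower among all genes. The calcium-binding gene S100a4 was higher by 5.36 (SE 0.11, edgeR adjusted p = 6.86e-23) and stayed so under every scaling, and Orai2, a store-operated channel, by 2.02, the release channel Ryr3 by 1.77 and S100a6 by 1.47, which were not past 2-fold with library totals. The plasma membrane calcium pump Atp2b4 was lower in fiber, at -4.63 (SE 0.14, edgeR adjusted p = 9.73e-20), as were the inositol trisphosphate receptor Itpr3 at -4.004, the annexin Anxa1 at -3.59 and S100a10 at -1.96, and all 4 were lower under every scaling. S100a10 was low in both tissues, with means of 0.72 CPM in fiber and 3.17 CPM in epithelium.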
